A study of Mus musculus with 8 samples.

Results

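The genes described here are 55 genes that act in mitosis: mitotic cyclins and their kinase, the spindle checkpoint, kinetochore proteins, kinesin motors, cytokinesis factors and condensin. They were chosen by name, from knowledge of their roles, and found by their symbols among the 42454 genes of the deposited count table. Earlier results of these data were known when these genes and the lists set beside them were chosen. The counts below thus describe lists that were not drawn blind. All 55 were present, and 54 had enough reads to be tested. Polyadenylated RNA was sequenced from RAW264.7 cells, an established mouse macrophage-like line, in 8 libraries that the labels place in 4 groups of 2. By its label, the group LPS_IFNg_TubB was given lipopolysaccharide at 10 ng/ml, interferon-gamma at 20 ng/ml and Tubuloside B, a phenylethanoid glycoside, with a time of 24 h. The label of LPS_IFNg gives the same stimulus for 24 h without the compound. That of TubB gives Tubuloside B alone, and that of mock the solvent DMSO alone. The dose of Tubuloside B, and the time for the groups labelled TubB and mock, are not given in the sources used here. Nothing in the labels says that the libraries of a group came from separate cultures, so the p-values below measure only the spread between these samples, which may be technical.

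In a dividing cell, cyclin B with Cdk1 drives entry into mitosis, and the kinases Plk1, Aurka and Aurkb build the spindle and correct its attachments. Kinetochores hold chromosomes to microtubules, and the spindle checkpoint keeps the anaphase-promoting complex inactive until all chromosomes are attached. Cdc20 then activates that complex, cyclin B and securin are destroyed, separase opens cohesin, and the central spindle directs cytokinesis. Most of these genes are transcribed in G2 and mitosis under the MuvB, B-Myb and Foxm1 factors, and their RNA is low in cells that have left the cycle. RAW264.7 cells divide in culture without added growth factor, and primary macrophages are known to stop dividing when activated.

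The labels and the marker genes of stimulation were at odds. Nos2, the inducible nitric oxide synthase, had 6964 and 5762 CPM (a count divided by its library total, corrected by the TMM factor, and scaled up) in the libraries labelled TubB, against 176 and 155 CPM in those labelled mock. It had 7429 and 6156 CPM in the libraries labelled LPS_IFNg_TubB, against 199 and 166 CPM in those labelled LPS_IFNg. The lipopolysaccharide and interferon targets Nos2, Ptgs2, Il6, Il1b, Ccl5, Irf1, Gbp2, Cd40 and Socs1 were each called higher in both groups whose label holds TubB. Of all genes tested 26.3% were called higher in TubB minus mock and 26.2% in LPS_IFNg_TubB minus LPS_IFNg. Between LPS_IFNg and mock 0 of these targets were called, and 0 of all 11081 genes tested. The groups are therefore called by their labels throughout, and every direction below is a direction between libraries labelled so, not between known treatments. Counts summed to between 4767894 and 8413834 per library, and the first principal component, with 84.5% of the variance, separated the 4 libraries with TubB in the label from the other 4. Macrophage markers summed to 9106 to 9649 CPM in the libraries with TubB in the label and 7892 to 8167 CPM in the others, but its genes did not move alike. Cd14 had 2753 to 3010 CPM in the libraries with TubB in the label and 1392 to 1492 CPM in the others, whereas Csf1r had 179 to 216 CPM in the libraries with TubB in the label and 448 to 495 CPM in the others. Of the 3 neutrophil markers, Ly6g and S100a9 were at 0 counts in all 8 libraries, and S100a8 had 31.4 to 51.8 CPM in the libraries with TubB in the label, against 4.59 to 5.58 CPM in the others. Markers of T cells, B cells, epithelial cells and fibroblasts summed to at most 2.79 CPM in any library. The part of these markers in the results was not tested.

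The promoters of these genes share letters that the choice of genes did not use. In animal cells, late cell cycle genes are known for a cell cycle homology region (CHR, TTTGAA or TTCGAA), which the MuvB complex binds, and for spaced CCAAT boxes, which NF-Y binds. The RefSeq promoter table of GRCm38.p6, which covers 250 bases before to 50 bases after the start site, held 45 of the 55 genes. Both strands were searched, so that TTTGAA also counts as TTCAAA and CCAAT as ATTGG, and matches of different motifs may overlap at their ends. TTTGAA was in 33 of 45 promoters (73.3%), against 20.2% of the 27025 genes in the table. TTTGAA or TTCGAA was in 36 of 45 (80%), against 21.7% of all genes. CCAAT was in 33 of 45 (73.3%), against 41.1%, and 2 or more CCAAT boxes were in 22 of 45 (48.9%), against 13.3%. Either CHR form together with 2 or more CCAAT boxes was in 20 of 45 (44.4%), against 2.68% of all genes. Of 40 distinct neighbouring pairs of CCAAT boxes in 22 genes, 26 lay 25 to 45 bases apart, a spacing not counted over all promoters. A match is a description and not a site.

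The 120 bases before the start site are shown for 7 genes, from RefSeq with GRCm38.p6 coordinates, with the CHR and CCAAT matches in capitals. Ccnb2 (chr9:70421555-70421674, minus strand) shows evenly spaced CCAAT boxes. Cdc20 (chr4:118437344-118437463, minus strand), Cdk1 (chr10:69352913-69353032, minus strand) and Ube2c (chr2:164769809-164769928, plus strand) show CCAAT boxes beside a CHR. Plk1 (chr7:122159315-122159434, plus strand) is shown for its large difference between groups, and Bub1 (chr2:127831860-127831979, minus strand) for its small one. Nuf2 (chr1:169531465-169531584, minus strand) is shown because neither motif is in its window.
Ccnb2: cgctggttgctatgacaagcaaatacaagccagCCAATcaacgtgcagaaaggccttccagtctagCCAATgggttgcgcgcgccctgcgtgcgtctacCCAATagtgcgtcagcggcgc
Cdc20: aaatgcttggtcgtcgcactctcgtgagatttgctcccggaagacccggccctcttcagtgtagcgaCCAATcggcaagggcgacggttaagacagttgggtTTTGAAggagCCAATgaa
Cdk1: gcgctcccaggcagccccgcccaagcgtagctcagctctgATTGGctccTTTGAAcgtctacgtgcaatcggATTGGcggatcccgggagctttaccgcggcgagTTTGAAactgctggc
Ube2c: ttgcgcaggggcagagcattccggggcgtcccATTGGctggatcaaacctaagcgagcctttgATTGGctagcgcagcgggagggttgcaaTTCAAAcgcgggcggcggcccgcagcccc
Plk1: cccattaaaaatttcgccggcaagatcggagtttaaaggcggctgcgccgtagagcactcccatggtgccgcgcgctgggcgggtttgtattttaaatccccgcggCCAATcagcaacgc
Bub1: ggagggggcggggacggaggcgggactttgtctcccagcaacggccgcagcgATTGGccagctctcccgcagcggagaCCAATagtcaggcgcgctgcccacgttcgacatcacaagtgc
Nuf2: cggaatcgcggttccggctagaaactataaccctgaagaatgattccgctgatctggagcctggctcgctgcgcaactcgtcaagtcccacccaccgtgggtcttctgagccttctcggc

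Ccnb2 has 3 CCAAT boxes in this stretch, each 33 bases from the next, and its nearest TTTGAA begins 5 bases after the start site, outside the stretch shown. In Cdc20 the TTTGAA begins 18 bases before the start, and in Cdk1 one TTTGAA begins 15 bases before it and another 71. Ube2c carries the reverse form TTCAAA, 29 bases before the start. Plk1 holds a TTTGAA that begins 31 bases after its start site. Bub1 holds a TTCGAA that begins 15 bases after its own. Both lie outside the stretches shown. With windows that overlap counted once, 36 genes held 49 distinct matches to either CHR form. Of these, 34 began within 50 bases of a start site, a position not counted over all promoters. The 6 genes with neither motif were Birc5, Knstrn, Mad2l1, Nuf2, Nusap1 and Pttg1.

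The mitosis genes were lower in the libraries labelled TubB than in those labelled mock, as a body. The 55 genes summed to 3081 and 3810 CPM in the libraries labelled TubB, against 6369 and 6016 CPM in those labelled mock. The group means were 3446 ± 515 CPM in TubB and 6192 ± 250 CPM in mock (SD, n = 2 each), so that the TubB sum was 55.7% of the mock sum. As a share of all counts these genes made up 0.28% and 0.36% of the libraries labelled TubB and 0.686% and 0.648% of those labelled mock. By edgeR's quasi-likelihood test with Benjamini-Hochberg adjustment over all 11081 genes tested, 53 of the 54 tested genes were called lower at an adjusted p under 0.05 and 0 were called higher. Among all genes tested 24.9% were called lower and 26.3% higher in this comparison. In all 54 genes both TubB libraries lay below both mock libraries, a pattern seen in 38.6% of all genes. The median log2 fold change of the 54 was -0.86, a 1.81-fold lower level, with a range of -1.71 to -0.39, against a median of -0.01 over all genes tested. Of all 11081 genes tested 626 were called and lower by more than 2-fold in fitted level, and of the 54 mitosis genes 17 were. In RNA from bulk cultures, fewer cells in mitosis and less of these RNAs per cell cannot be told apart.

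The genes were likewise lower in the libraries labelled LPS_IFNg_TubB than in those labelled LPS_IFNg. They summed to 3010 and 3532 CPM in the libraries labelled LPS_IFNg_TubB, against 6473 and 6128 CPM in those labelled LPS_IFNg. The means were 3271 ± 369 CPM in LPS_IFNg_TubB and 6300 ± 244 CPM in LPS_IFNg (SD, n = 2 each), so that the LPS_IFNg_TubB sum was 51.9% of the LPS_IFNg sum. Again 53 of 54 genes were called lower and 0 higher by edgeR, where 25% of all genes were called lower and 26.2% higher. All 54 genes had both LPS_IFNg_TubB libraries below both LPS_IFNg libraries, as did 37.8% of all genes. The median log2 fold change was -0.97, a 1.96-fold lower level, with a range of -1.81 to -0.43. Of all 11081 genes tested 691 were called and lower by more than 2-fold, and of the 54 mitosis genes 23 were. These 2 comparisons share no library. However, each library was closest to a same-numbered library of the other comparison, as given at the end. The 2 comparisons may thus not be independent. Across the 54 genes their log2 fold changes had a Pearson correlation of 0.914 and a Spearman correlation of 0.895, and over all 11081 genes tested the values were 0.923 and 0.891, where genes are not independent replicates. The scaling matters for the whole table: with plain library totals in place of TMM factors, a choice made after seeing the data, the median of all genes shifted to -0.23 in TubB minus mock and -0.22 in LPS_IFNg_TubB minus LPS_IFNg. The share of all called genes that were lower then moved to 67.6% and 67.4%, against 48.6% and 48.8% with TMM factors. The medians of the 54 genes under that scaling were -1.07 and -1.18, which is -0.84 and -0.96 relative to the median of all genes.

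**Figure D1:**
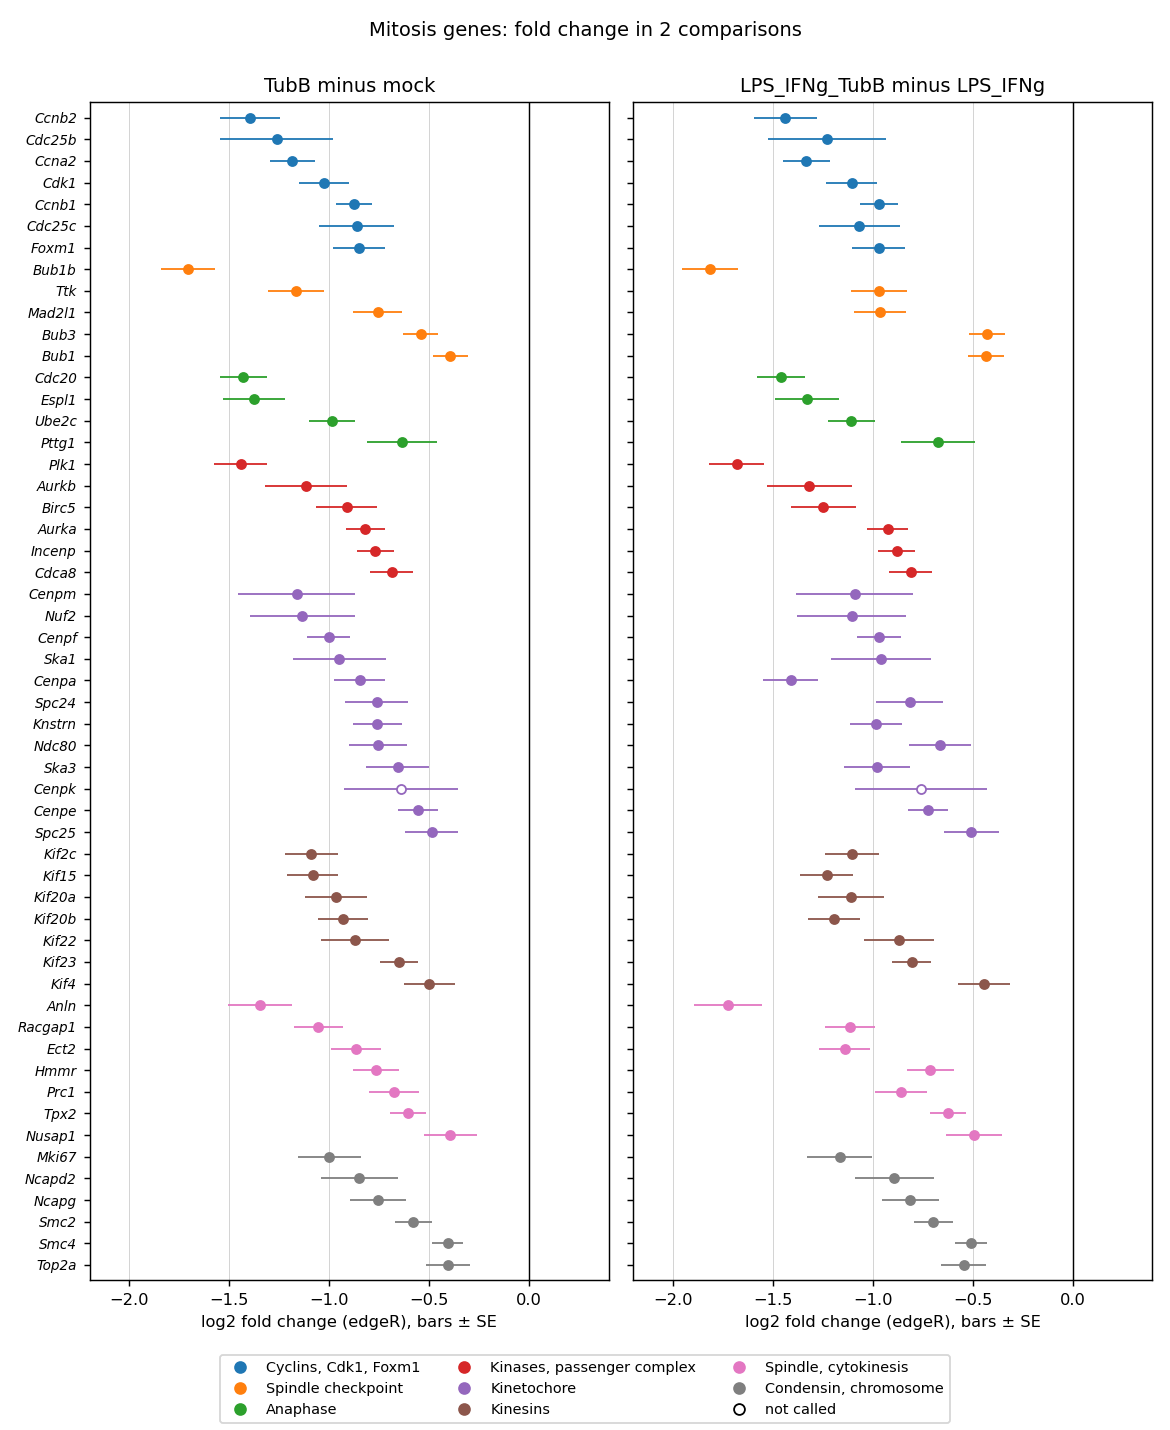
Log2 fold change (edgeR, bars ± SE) of the 54 tested genes in TubB minus mock on the left and LPS_IFNg_TubB minus LPS_IFNg on the right, coloured by role and ordered by the left panel within each role. All points lie below 0, between -1.71 and -0.39 on the left and -1.81 and -0.43 on the right, and Cenpk is the open point that was not called in either.

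The cyclins and the regulators of mitotic entry were all lower, 7 of 7 in both comparisons, with medians of -1.03 in TubB minus mock and -1.11 in LPS_IFNg_TubB minus LPS_IFNg. Ccnb1, cyclin B1, had 86.1 and 102 CPM in the libraries labelled TubB, against 181 and 167 CPM in those labelled mock (log2 fold change -0.87 ± 0.09 SE, edgeR adjusted p = 2.64e-09). Ccnb2, cyclin B2, had 27 and 24 CPM in TubB libraries, against 70.9 and 62.3 CPM in mock libraries (-1.40 ± 0.15, adjusted p = 1.56e-08). The fall of cyclin B2 was thus larger in estimate than that of cyclin B1, although the difference between the genes was not tested. Ccna2, cyclin A2, which acts from S phase into early mitosis, had 61.3 and 81.3 CPM in TubB libraries, against 176 and 152 CPM in mock libraries (-1.18 ± 0.11, adjusted p = 1.23e-08). Cdc25b, the phosphatase that first activates cyclin B with Cdk1, had 21.3 and 41.8 CPM in TubB libraries, against 80.1 and 78.3 CPM in mock libraries (-1.26 ± 0.28, adjusted p = 0.01). Its 2 TubB libraries were far apart but both lay below the mock libraries, and the call was lost with only 1 mock library (adjusted p = 0.0625 without mock replicate 1 and 0.056 without mock replicate 2). Cdk1 itself, at -1.03 ± 0.12, Cdc25c, its later activator, at -0.86 ± 0.19, and Foxm1, the transcription factor of this program, at -0.85 ± 0.13, were also lower. In the groups with LPS_IFNg in the label, cyclin B2 had 18.4 and 29.2 CPM in LPS_IFNg_TubB libraries, against 68.8 and 63 CPM in LPS_IFNg libraries (-1.44 ± 0.16, adjusted p = 1.83e-08).

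Of the spindle checkpoint genes 5 of 5 were lower in both comparisons, and in TubB minus mock they held both ends of the range, the smaller one together with Nusap1. Bub1b (chr2:118598202-118641592, plus strand) encodes BubR1, which binds and inhibits Cdc20. It had 46.6 and 60.9 CPM in the libraries labelled TubB, against 181 and 175 CPM in those labelled mock. Its log2 fold change of -1.71 ± 0.13 was the largest among the 54 genes (adjusted p = 4.55e-08). In the other comparison it had 42.7 and 61.5 CPM in LPS_IFNg_TubB libraries, against 190 and 182 CPM in LPS_IFNg libraries (-1.81 ± 0.14, adjusted p = 3.09e-08). Bub1, its kinase paralogue, which marks the kinetochore for the checkpoint, had 101 and 110 CPM in TubB libraries, against 136 and 143 CPM in mock libraries (-0.39 ± 0.09, adjusted p = 0.000364). Bub3, the partner of both, had 109 and 100 CPM in TubB libraries, against 151 and 153 CPM in mock libraries (-0.54 ± 0.09, adjusted p = 5.17e-06). Ttk, the Mps1 kinase that starts checkpoint signalling, had 20.6 and 23.8 CPM in TubB libraries, against 51.5 and 49.2 CPM in mock libraries (-1.17 ± 0.14, adjusted p = 3.78e-08). Mad2l1, which with BubR1 forms the inhibitor of Cdc20, was at -0.76 ± 0.12. The paralogues Bub1b and Bub1 thus stood at the opposite ends, a difference between genes that was not tested.

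The anaphase genes, 4 of 4 lower in both comparisons, had the lowest median of the 8 roles, -1.18 in TubB minus mock and -1.22 in LPS_IFNg_TubB minus LPS_IFNg. Cdc20 (chr4:118432901-118437343, minus strand), the activator that the checkpoint holds back, had 38 and 47.5 CPM in TubB libraries, against 128 and 106 CPM in mock libraries (-1.43 ± 0.12, adjusted p = 2.92e-11). In the groups labelled with LPS_IFNg it had 40.4 and 45.4 CPM in LPS_IFNg_TubB libraries, against 122 and 115 CPM in LPS_IFNg libraries (-1.46 ± 0.12, adjusted p = 3.53e-11). Both adjusted p-values were the smallest of the 54 genes. Espl1, separase, which cuts cohesin, had 36.9 and 50.8 CPM in TubB libraries, against 114 and 118 CPM in mock libraries (-1.38 ± 0.16, adjusted p = 3.56e-06). Ube2c, the ubiquitin-conjugating enzyme of the anaphase-promoting complex, had 45.7 and 57.8 CPM in TubB libraries, against 102 and 106 CPM in mock libraries (-0.99 ± 0.12, adjusted p = 3.14e-08). Securin, Pttg1, which holds separase inactive, was lower by less, at -0.64 ± 0.18 (adjusted p = 0.00344), and with TubB replicate 2 left out it was no longer called (adjusted p = 0.0605).

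Mitotic kinases and the chromosomal passenger complex were lower in 6 of 6 genes in both comparisons, with medians of -0.87 and -1.09. Plk1 (chr7:122159435-122169884, plus strand), Polo-like kinase 1, had 31 and 45.5 CPM in TubB libraries, against 109 and 105 CPM in mock libraries (-1.44 ± 0.13, adjusted p = 1.29e-09). In the other comparison it had 30.5 and 36.8 CPM in LPS_IFNg_TubB libraries, against 114 and 104 CPM in LPS_IFNg libraries (-1.68 ± 0.14, adjusted p = 2.07e-10). Aurkb, Aurora B, the kinase of the passenger complex, had 29.4 and 46.6 CPM in TubB libraries, against 89.5 and 80.2 CPM in mock libraries (-1.12 ± 0.20, adjusted p = 0.00107). Its scaffold Incenp had 127 and 167 CPM in TubB libraries, against 259 and 247 CPM in mock libraries (-0.77 ± 0.09, adjusted p = 1.29e-07). Aurka, Aurora A, the centrosomal kinase, had 60 and 67.4 CPM in TubB libraries, against 109 and 117 CPM in mock libraries (-0.82 ± 0.10, adjusted p = 4.33e-08). The other passenger subunits, Birc5 (survivin) and Cdca8 (borealin), were at -0.91 ± 0.15 and -0.69 ± 0.11. All 4 genes of the passenger complex were thus lower, Aurkb with the largest estimate.

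**Figure D2:**
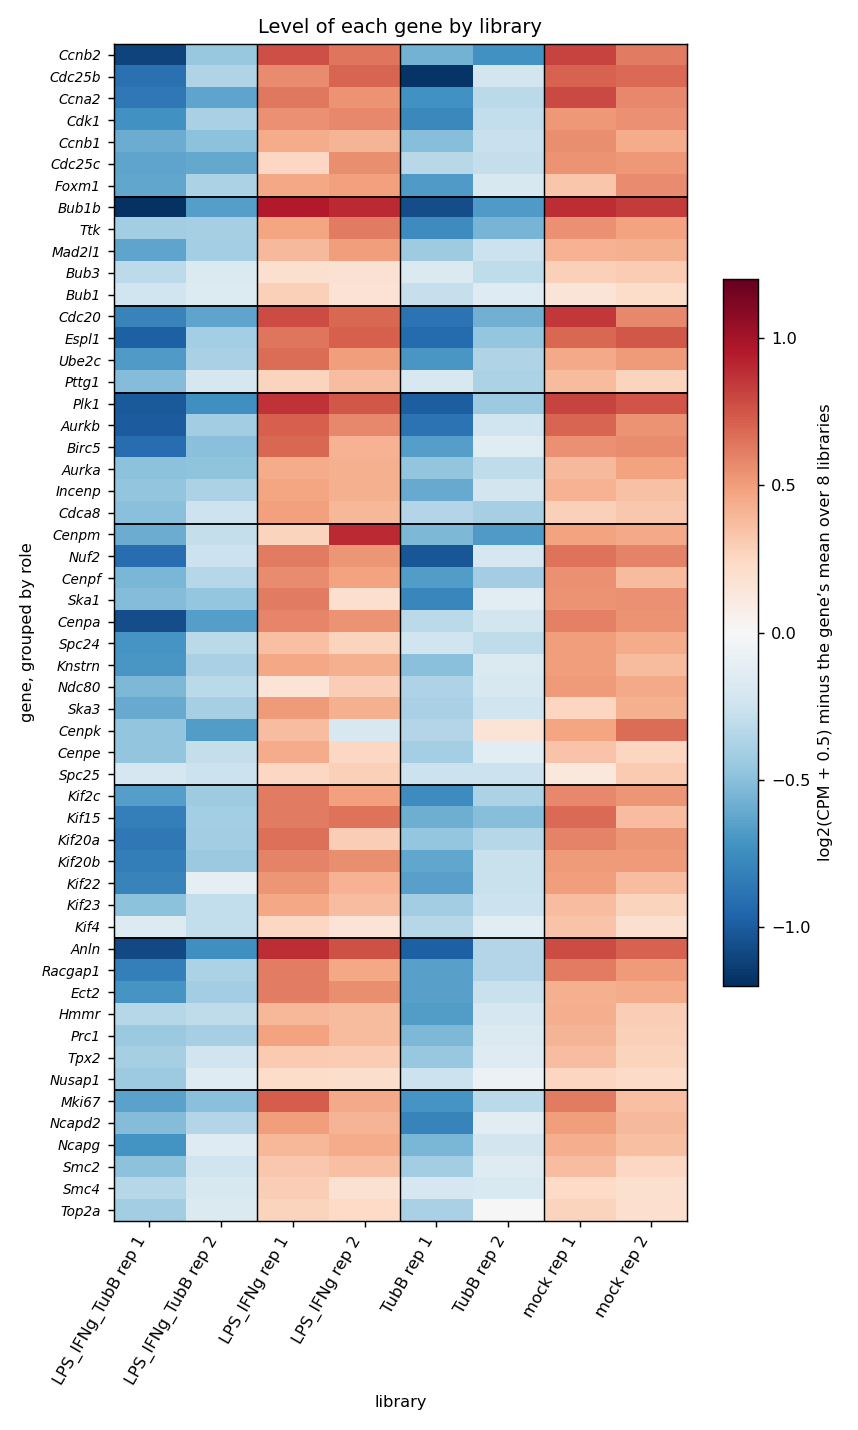
Level of each of the 54 tested genes in each library, as log2(CPM + 0.5) minus the mean of that gene over the 8 libraries, grouped by role (colours end at the limits of the scale). The 4 libraries with TubB in the label are blue for nearly all genes and the other 4 are red, and the second library of each TubB-labelled pair is paler than the first in most rows.

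Kinetochore genes were called lower in 11 of 12 in both comparisons, with medians of -0.76 and -0.96. Cenpm, a subunit of the inner kinetochore network, had 5.05 and 4.52 CPM in TubB libraries, against 10.8 and 10.5 CPM in mock libraries (-1.16 ± 0.29, adjusted p = 0.00136). Nuf2 (chr1:169497934-169531464, minus strand), a subunit of the microtubule-binding Ndc80 complex, had 22.6 and 40.6 CPM in TubB libraries, against 73.4 and 70.8 CPM in mock libraries (-1.14 ± 0.26, adjusted p = 0.00901, and 0.0597 without mock replicate 1). The other subunits of that complex, Ndc80, Spc24 and Spc25, were at -0.76 ± 0.14, -0.76 ± 0.16 and -0.49 ± 0.13. All 4 subunits were thus lower, and Spc25 lost its call without mock replicate 2 (adjusted p = 0.0633). Cenpe, a kinetochore motor, had 89.2 and 108 CPM in TubB libraries, against 150 and 142 CPM in mock libraries (-0.56 ± 0.10, adjusted p = 2.4e-05). Cenpf, a large outer kinetochore protein, had 50.3 and 60.1 CPM in TubB libraries, against 118 and 105 CPM in mock libraries (-1.0 ± 0.11, adjusted p = 5.37e-09). The spindle and kinetochore associated genes Ska1 and Ska3 were at -0.95 ± 0.23 and -0.66 ± 0.16, and Knstrn, the small kinetochore protein kinastrin, at -0.76 ± 0.12.

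Cenpk, a partner of the inner kinetochore network, was the gene that missed the call. It had 5.27 and 7.79 CPM in TubB libraries, against 9.77 and 11.3 CPM in mock libraries (-0.64 ± 0.28, adjusted p = 0.0601). In the groups labelled with LPS_IFNg it had 4.82 and 4.13 CPM in LPS_IFNg_TubB libraries, against 9.05 and 5.95 CPM in LPS_IFNg libraries (-0.76 ± 0.33, adjusted p = 0.0571). Its libraries did not overlap between groups in either comparison, and it was called without TubB replicate 2 (adjusted p = 0.0385) and, in LPS_IFNg_TubB minus LPS_IFNg, without LPS_IFNg replicate 2 (0.0281). It had the lowest level per length among the tested genes in mock, 4.41 CPM per kilobase, and 10% of its exon bases also lie in exons of Ppwd1. Its values are thus less certain than most. Overlap was not particular to Cenpk. In all, 14 of the 55 genes shared exon bases with another gene, among them Ccna2 (11.2%, with Exosc9) and Aurka (9.49%, with Cstf1).

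Cenpa, the histone H3 variant that marks the centromere, was the one gene with an unadjusted p under 0.05 between LPS_IFNg_TubB and TubB. It had 21.1 and 28.1 CPM in LPS_IFNg_TubB libraries, against 35.6 and 38.2 CPM in TubB libraries. Both LPS_IFNg_TubB libraries thus lay below both TubB libraries, as in 6 of the 54 genes and 1484 of all 11081 genes tested. The reverse order was seen in 1 of the 54 and 1490 of all genes. The log2 fold change of Cenpa was -0.57 ± 0.15, with an unadjusted p of 0.000486 and an edgeR adjusted p of 0.999, so it was not called. It was lower in both comparisons of groups with and without TubB in the label, at -1.41 ± 0.14 in LPS_IFNg_TubB minus LPS_IFNg and -0.85 ± 0.13 in TubB minus mock, and the difference between these 2, -0.56 ± 0.19, was not called either (adjusted p = 1).

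All 7 kinesins that could be tested were lower in both comparisons, with medians of -0.93 and -1.10. Kif2c (chr4:117159633-117182624, minus strand), the microtubule depolymerase MCAK, had 27 and 35.2 CPM in TubB libraries, against 68.7 and 66.2 CPM in mock libraries (-1.09 ± 0.13, adjusted p = 4.93e-08). Kif15, a motor that helps keep the spindle bipolar, had 37.6 and 39.7 CPM in TubB libraries, against 90.9 and 73.4 CPM in mock libraries (-1.08 ± 0.13, adjusted p = 3.7e-08). Kif23, a subunit of centralspindlin, had 74.5 and 82.8 CPM in TubB libraries, against 128 and 120 CPM in mock libraries (-0.65 ± 0.10, adjusted p = 1.58e-06). Kif20b, which acts in cytokinesis, had 37.6 and 48.3 CPM in TubB libraries, against 83 and 82.9 CPM in mock libraries (-0.93 ± 0.12, adjusted p = 3.44e-07). Kif22, the chromosome-arm motor, was at -0.87 ± 0.17, and Kif4, the chromokinesin that binds Prc1, at -0.50 ± 0.13. Kif20a, which carries the passenger complex to the central spindle, was at -0.97 ± 0.16. However, 60.6% of its exon bases also lie in exons of Cdc23, a gene that was itself lower (-0.74 ± 0.12). The library kit kept no strand. What this overlap did to the counts and the level of Kif20a was not tested. Kif11, the motor that pushes the spindle poles apart, had 0 counts in all 8 libraries. It has a numbered copy on a patch sequence of the assembly, which was also at 0, and reads that fit both copies were not counted under the counter's defaults. Its value of 0 says nothing about its expression.

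The spindle and cytokinesis genes were lower in 7 of 7 in both comparisons, with medians of -0.77 and -0.86. Anln (chr9:22331214-22389211, minus strand), anillin, the scaffold of the contractile ring, had 42.4 and 65.6 CPM in TubB libraries, against 144 and 138 CPM in mock libraries (-1.35 ± 0.16, adjusted p = 2.96e-05). In the other comparison it had 39.3 and 50.1 CPM in LPS_IFNg_TubB libraries, against 156 and 143 CPM in LPS_IFNg libraries (-1.73 ± 0.17, adjusted p = 5.52e-06). Racgap1, the partner of Kif23 in centralspindlin, had 63.9 and 78.8 CPM in TubB libraries, against 156 and 144 CPM in mock libraries (-1.05 ± 0.12, adjusted p = 6.46e-07). Ect2, which centralspindlin recruits to activate RhoA, was at -0.87 ± 0.12. Tpx2, the spindle factor that activates Aurora A, had 123 and 151 CPM in TubB libraries, against 218 and 203 CPM in mock libraries (-0.61 ± 0.09, adjusted p = 1.38e-06). Prc1, which bundles the central spindle, was at -0.68 ± 0.13, with 21.9% of its exon bases shared with Rccd1, and the microtubule-binding Hmmr was at -0.77 ± 0.11. Nusap1, a microtubule-bundling protein, was at -0.39 ± 0.13 (adjusted p = 0.0142), and its call was lost in DESeq2 (adjusted p = 0.0856) and without mock replicate 1 (0.0711), mock replicate 2 (0.0503) or TubB replicate 1 (0.102).

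The condensin and chromosome genes were lower in 6 of 6 in both comparisons, and had the medians closest to 0 of the 8 roles, -0.67 and -0.75. Mki67 (chr7:135689784-135716450, minus strand), the proliferation marker Ki-67, which coats mitotic chromosomes, had 275 and 359 CPM in TubB libraries, against 694 and 579 CPM in mock libraries (-1.0 ± 0.16, adjusted p = 0.00165). In the groups labelled with LPS_IFNg it had 288 and 318 CPM in LPS_IFNg_TubB libraries, against 744 and 618 CPM in LPS_IFNg libraries (-1.17 ± 0.16, adjusted p = 0.000791). Top2a, topoisomerase II alpha, which untangles sister chromatids, had 304 and 398 CPM in TubB libraries, against 478 and 456 CPM in mock libraries (-0.40 ± 0.11, adjusted p = 0.00803), and lost its call without mock replicate 1 (0.0527). Ncapd2, a condensin I subunit, had 78.4 and 125 CPM in TubB libraries, against 194 and 180 CPM in mock libraries (-0.85 ± 0.19, adjusted p = 0.00947). Its call was lost without mock replicate 1 (0.0576). Ncapg, another condensin I subunit, was at -0.76 ± 0.14, with 20.1% of its exon bases shared with Lcorl. The core condensin ATPases Smc2 and Smc4, which condensin I and II share, were at -0.58 ± 0.09 and -0.41 ± 0.08.

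**Figure D3:**
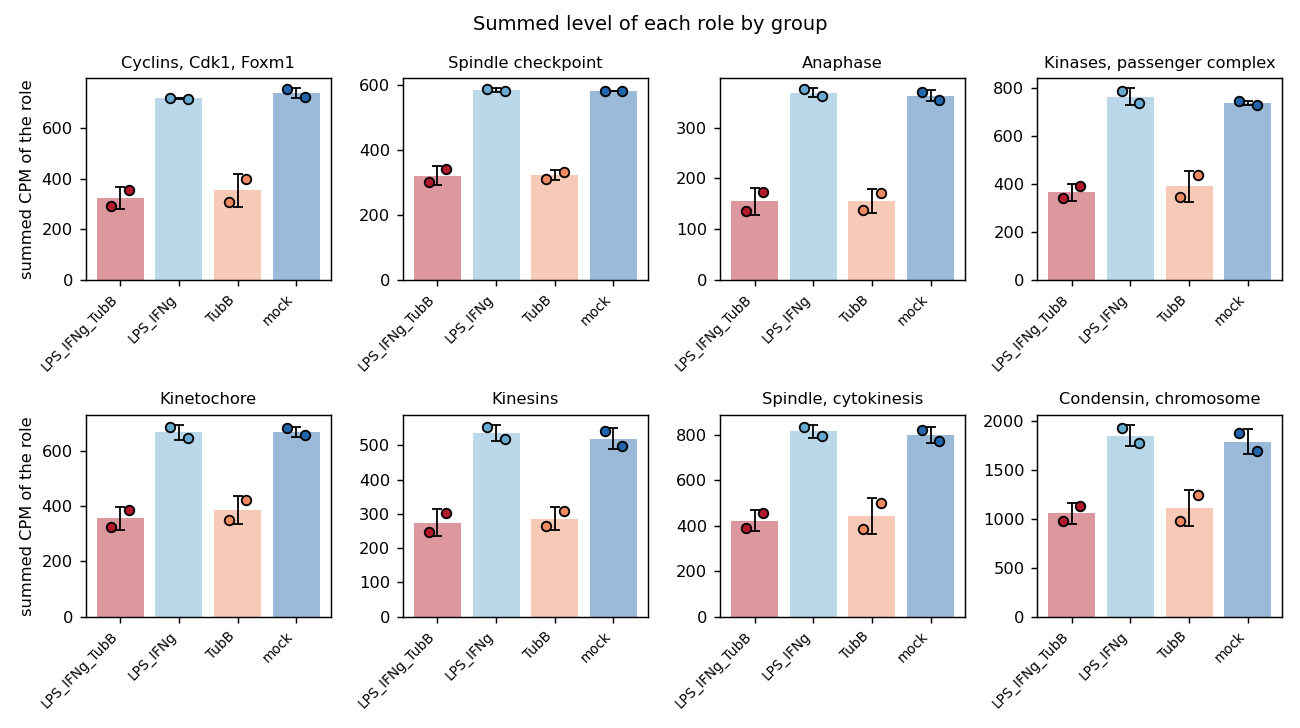
Summed CPM of the genes of each of the 8 roles in the 4 groups, with bars at the mean, points for the 2 libraries and error bars of 1 SD (n = 2), on axes that start at 0. In each role both libraries labelled LPS_IFNg_TubB lie below both labelled LPS_IFNg, and both labelled TubB below both labelled mock.

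Set per length, the order of the genes can be compared. In the libraries labelled mock, Ube2c had the highest level, 112 CPM per kilobase of exon, followed by Top2a at 89.3, Incenp at 77.8, Ccnb1 at 75 and Bub3 at 69.6 CPM per kilobase. In the libraries labelled TubB, Top2a stood above Ube2c, at 67.2 and 55.6 CPM per kilobase. The lowest tested genes in mock were Cenpk at 4.41, Kif4 at 5.48, Cenpm at 5.62 and Ska1 at 6.67 CPM per kilobase. Across the 54 genes the level in LPS_IFNg libraries, which take no part in the contrast, had a Pearson correlation of -0.02 with the log2 fold change of TubB minus mock and a Spearman correlation of -0.01, with no trend by level to see.

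Set against the promoter letters, the medians of the changes were as follows. The 35 tested genes with TTTGAA or TTCGAA had a median log2 fold change of -0.87 in TubB minus mock, and the 9 with neither had -0.76. The 22 genes with 2 or more CCAAT boxes had a median of -0.86, and the 22 with 0 or 1 had -0.84. Nuf2, whose stretch above holds neither motif, was at -1.14. Bub1, with 2 CCAAT boxes and a TTCGAA after its start site, was at -0.39. The range was -1.71 to -0.39 with a CHR and -1.14 to -0.39 without one.

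By the labels LPS_IFNg and mock differ in the stimulus, and the time for mock is not given. Between them no mitosis gene was called. They summed to 6300 ± 244 CPM in LPS_IFNg and 6192 ± 250 CPM in mock, or 102%. By edgeR 0 of 54 genes were called in either direction, where 0% of all genes were called lower and 0% higher, and 0 of 54 had an unadjusted p under 0.05, against 247 of all 11081 genes. DESeq2 and limma also called 0. The median log2 fold change was 0.02, with a range of -0.48 (Cenpk, ± 0.28) to 0.15 (Cenpm, ± 0.26). Between LPS_IFNg_TubB and TubB the sums were 3271 ± 369 and 3446 ± 515 CPM, or 94.9%, with 0 of 54 genes called by edgeR, DESeq2 or limma, 0% of all genes called in either direction, and an unadjusted p under 0.05 for 1 of 54 genes, Cenpa, and 269 of all genes. The median was -0.07. The interaction, the change in LPS_IFNg_TubB minus LPS_IFNg less that in TubB minus mock, was called in 0 of 54 genes by any of the 3 tools, with 0% of all genes called lower or higher, a median of -0.10 and an unadjusted p under 0.05 for 1 of 54 genes, again Cenpa, and 277 of all genes. These calls do not show that the levels were equal: the median SE of the 54 log2 fold changes was 0.12 in LPS_IFNg minus mock, 0.14 in LPS_IFNg_TubB minus TubB and 0.19 in the interaction.

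The 2 libraries of a group differed in the same direction in most of these genes. In TubB, 48 of 54 genes were higher in replicate 2 than in replicate 1, with a median difference of 0.31 in log2(CPM + 0.5), and in LPS_IFNg_TubB 51 of 54 were higher in replicate 2, with a median of 0.24. The largest differences in TubB were those of Cdc25b, 0.96, Nuf2, 0.83, and Ncapd2, 0.67, and in LPS_IFNg_TubB those of Kif22, 0.70, Ccnb2, 0.66, and Nuf2, 0.66. In mock 39 of 54 and in LPS_IFNg 40 of 54 genes were lower in replicate 2, with a median of -0.07 in both. Over all genes tested these medians lay between -0.0031 and 0.0067. The share of all genes lower in replicate 2 was 50.7% in mock, 49.6% in TubB, 48.3% in LPS_IFNg and 49.8% in LPS_IFNg_TubB. TubB replicate 2 and LPS_IFNg_TubB replicate 2 also lay nearer to the other groups on the first principal component, at 41.6 and 45.3, than did TubB replicate 1 and LPS_IFNg_TubB replicate 1, at 55.7 and 55.9. Most of the genes thus moved the same way between libraries of one group as well as between groups. Genes are not independent replicates, and with 2 libraries a group this was not tested. In all 54 genes the log2 fold change between groups was larger than the difference between the libraries of either group. This held in TubB minus mock and in LPS_IFNg_TubB minus LPS_IFNg. The share of all genes tested that meet this was not counted, so it cannot be read as particular to the mitosis genes.

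**Figure D4:**
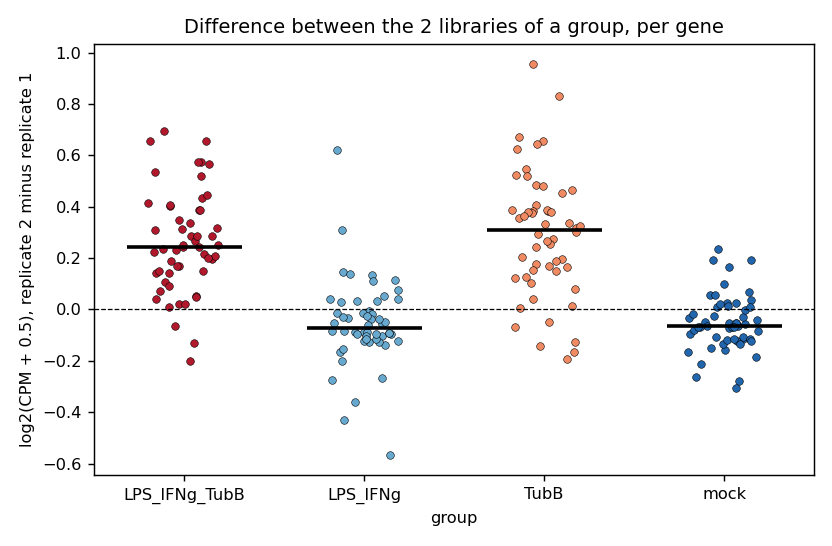
Difference between the 2 libraries of each group, as log2(CPM + 0.5) in replicate 2 minus replicate 1, with 1 point for each of the 54 tested genes and a line at the median. The points of LPS_IFNg_TubB and TubB lie mostly above 0, with medians of 0.24 and 0.31, and those of LPS_IFNg and mock lie around -0.07.

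Other genes of the same processes, outside the 55, are described by counts without a test of the lists, to be read against the 24.9% of all genes called lower and 26.3% called higher in TubB minus mock. Of 21 further spindle and cytokinesis genes measured, 18 were called lower and 0 higher in TubB minus mock, with a median of -0.61. Kif18a, a motor that limits chromosome movement, led them with 5.71 and 7.79 CPM in TubB libraries, against 28.6 and 23.2 CPM in mock libraries (-1.90 ± 0.22, adjusted p = 1.63e-08), a larger estimate than that of any of the 55. Arhgef39 was next at -1.53 ± 0.33 (adjusted p = 0.000257). All 4 of the other condensin genes were lower, with a median of -0.42, among them Ncaph, the kleisin of condensin I, at -0.91 ± 0.13, and Ncapd3, a condensin II subunit, at -0.47 ± 0.12.

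Among 17 measured regulators of mitotic entry 9 were lower and 1 higher, with a median of -0.62, where 24.9% of all genes were lower. Bora, the cofactor with which Aurora A activates Plk1, was at -1.44 ± 0.16 (adjusted p = 1.69e-08), and Wee1, the kinase that inhibits Cdk1, at -1.32 ± 0.17 (adjusted p = 2.09e-07), so that an activator and an inhibitor of entry were both lower. Ensa, a phosphatase inhibitor of the Greatwall pathway, was the one that rose, with 169 and 161 CPM in TubB libraries, against 97.6 and 98.7 CPM in mock libraries (0.75 ± 0.09, adjusted p = 2.61e-08). Of 14 genes of cohesin and its partners 8 were lower and 2 higher, with a median of -0.49. The lower ones were led by Sgo1, shugoshin, which protects centromeric cohesin, at -1.25 ± 0.18, and by Esco2, an acetyltransferase of cohesin, at -0.93 ± 0.16. The higher ones were the loader subunits Mau2, at 0.47 ± 0.11, and Nipbl, at 0.37 ± 0.09. With plain library totals Nipbl was not called (adjusted p = 0.143), while Ensa and Mau2 were still called higher (1.31e-05 and 0.0467).

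Of 26 other kinetochore and centromere genes measured, 11 were lower and 1 higher, with a median of -0.34, beside 24.9% of all genes lower and 26.3% higher. Cenpp, of the inner kinetochore, was at -1.23 ± 0.38 (adjusted p = 0.00712), and Knl1, the platform on which Bub1 and Bub3 assemble, at -1.11 ± 0.19 (adjusted p = 0.000598). Zwint, a partner of Knl1, went the other way with 103 and 117 CPM in TubB libraries, against 81.2 and 83.8 CPM in mock libraries (0.42 ± 0.09, adjusted p = 0.000412), though it was not called with plain library totals (0.0758). Of the 19 measured genes of the MuvB, Rb and E2F machinery 10 were lower and 1 higher, with a median of -0.30. Mybl2, B-Myb, the partner of MuvB at CHR promoters, had 37.3 and 52.9 CPM in TubB libraries, against 134 and 119 CPM in mock libraries (-1.46 ± 0.15, adjusted p = 1.26e-06). Tfdp2, a dimer partner of E2F factors, was at -1.96 ± 0.28 (adjusted p = 1.09e-06), and Rb1, the retinoblastoma repressor, was higher at 0.78 ± 0.18 (adjusted p = 0.000451).

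Of 17 measured subunits and partners of the anaphase-promoting complex itself 5 were lower and 4 higher, with a median of -0.09. These shares were near those over all genes tested, 24.9% lower and 26.3% higher, and the median of all genes was -0.01. Fbxo5, its inhibitor Emi1, fell most (-1.17 ± 0.22, adjusted p = 0.000167), followed by the subunit Cdc23 (-0.74 ± 0.12, adjusted p = 4.31e-06), whose exons overlap those of Kif20a. The higher ones were Anapc16, at 0.69 ± 0.17, Anapc10, at 0.61 ± 0.22, Anapc11, at 0.40 ± 0.13, and Anapc7, at 0.32 ± 0.12. With plain library totals 8 were lower and only 1 higher, Anapc16, and DESeq2 called 4 lower and 1 higher. Leaving out 1 library of TubB or mock left 1 or 2 called higher. In LPS_IFNg_TubB minus LPS_IFNg the medians of these lists were -0.73 for other spindle and cytokinesis genes, -0.63 for other condensin, -0.60 for entry regulators, -0.52 for cohesin, -0.48 for other kinetochore genes, -0.45 for MuvB, Rb and E2F, and -0.13 for the anaphase-promoting complex.

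**Figure D5:**
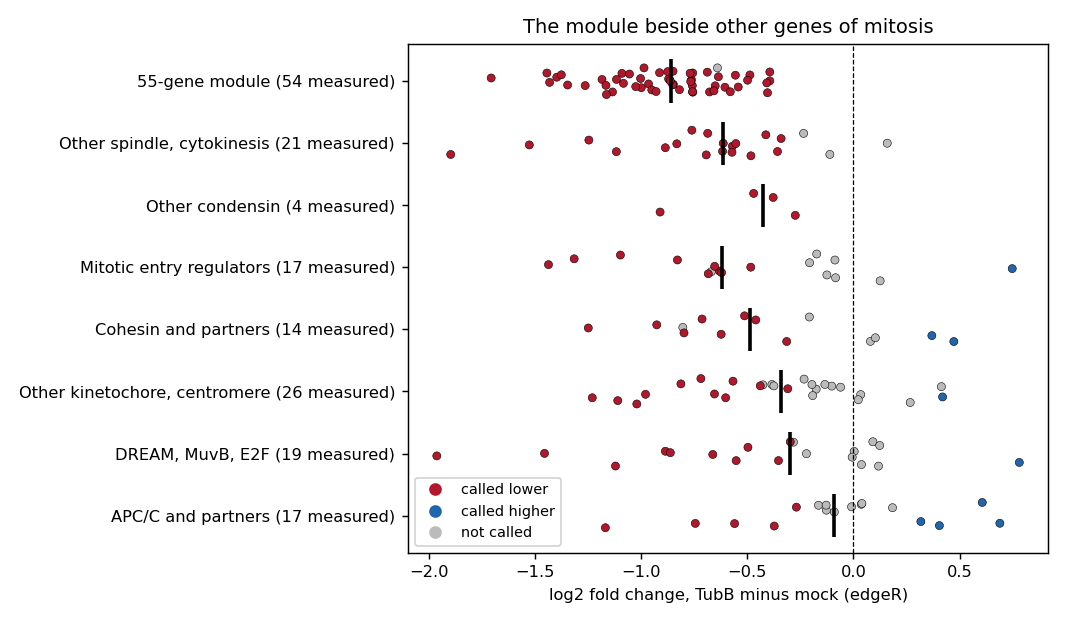
Log2 fold change of TubB minus mock (edgeR) for each measured gene of the module and of 7 other lists of mitotic genes, with a bar at the median of each list, red for genes called lower, blue for genes called higher and grey for genes not called. The module's median is -0.86, that of the other spindle and cytokinesis list -0.61, and that of the anaphase-promoting complex -0.09.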

How the data were processed

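The authors deposited raw read counts per gene for 8 libraries and a table of regularised log2 values (rlog). Alignment used STAR 2.7.0, per the submitters' processing notes. Per the file headers, featureCounts 2.0.1 counted read pairs over exons by gene with the RefSeq annotation of GRCm38.p6, with no strand option. The deposited gene length, in bases, was used for levels per kilobase. Counts were tested with edgeR 4.0.16 in R 4.3.3: TMM factors, filterByExpr (minimum count 10, minimum total 15), quasi-likelihood test, all 8 libraries, group only, Benjamini-Hochberg adjustment over 11081 genes, called under 0.05. The fit was tested on simulated counts in which a small part of the genes changed, equally up and down. That setting does not cover changes in as many genes as were called here. The SE is the absolute fold change divided by the root of F. Alternatives were RLE factors, no filter, the compared groups alone, a replicate block, DESeq2 1.42.0, limma 3.58.1 on rlog values, leaving out each library and, added later, plain library totals. Genes given per library were, per role, the 2 most expressed and the 2 with the largest fold change in TubB minus mock, plus those not called; Cenpa was added after its values were seen. Genes of other lists were the 2 called with the largest change; called genes of the opposite direction were added after their values were seen. The members and lists were chosen with earlier results of these data known.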

Additional observations from a re-analysis of the deposited data

How the results depend on the processing

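In TubB minus mock the number of the 54 genes called lower was 52 to 54 under the other settings and 48 to 53 when 1 library was left out. In LPS_IFNg_TubB minus LPS_IFNg it was 53 to 54, and 50 to 53 when 1 library was left out. No gene was called higher, and no fold change reversed, in either comparison under the settings run. The medians ranged from -1.03 to -0.72 and from -1.10 to -0.87 when 1 library was left out. With limma on the deposited rlog values, which shrink fold changes by construction, they were -0.53 and -0.59. With plain library totals 4198 genes of the whole table were called lower in TubB minus mock, against 2755. With all 8 libraries kept, the other settings called 1989 to 4198 genes of the whole table lower in TubB minus mock. In LPS_IFNg_TubB minus LPS_IFNg they called 2106 to 4132 lower, against 2768. Of 1620 single-gene values in these comparisons, 21 lost and 5 gained the call, in 11 genes. Beside the losses given above, these were Cdc25b without LPS_IFNg replicate 2 (adjusted p = 0.0595), Nuf2, Ska1 and Kif4 without LPS_IFNg replicate 1 (0.0589, 0.0589 and 0.0552), Kif4 without LPS_IFNg_TubB replicate 2 (0.0683), Cenpm without LPS_IFNg replicate 2 (0.0946), Ncapd2 without LPS_IFNg_TubB replicate 1 or 2 (0.0746 and 0.0505), and Pttg1 and Nusap1 without LPS_IFNg_TubB replicate 1 (0.053 and 0.0782), all by edgeR. Cenpk was also called with library totals in both comparisons (0.0138 and 0.0162) and with limma on rlog values in TubB minus mock (0.0391).

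With the replicate number as a block, 53 of 54 genes were called lower in both comparisons, with medians of -0.87 and -0.97, and the block changed no call of these genes. Same-numbered libraries deviated together with a correlation of 0.157 between TubB and LPS_IFNg_TubB, 0.0901 between LPS_IFNg and mock, and -0.0565 to 0.0178 in the other pairs of groups. Only 2 numbers exist and the labels tie them to no shared culture or day, so pairing was not assumed. As a hint from the data, the library closest to each of the 8 was the same-numbered one of another label (mean chi-square 1.93 to 2.34 over genes between LPS_IFNg and mock and between LPS_IFNg_TubB and TubB), against 2.6 to 4.87 between libraries of 1 group. With 2 libraries a group and none of known origin, the spread is known poorly, and genes near 5 CPM, such as Cenpk and Cenpm, rest on few reads.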
